A study of Mus musculus with 10 samples.

Results

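Genes of the acrosome and of gamete fusion were followed in round spermatids after a short heating of the testis. The members are the rows of the deposited gene table whose symbol stands on a list of 35 names covering acrosome building, acrosomal contents, and sperm-egg binding and fusion. Of these names 34 had a row among 55401 genes, and all 34 passed the filter on low counts. The name without a row, Equatorin, is another name for Eqtn, which is a member. The 34 were described in 3 roles, with 15 genes of acrosome building, 9 of acrosomal contents and 10 of binding, fusion and egg activation. Per the labels, the animals were adult male CD1 mice under isoflurane, with no genetic change named. Their testes were held for 30 minutes against water at 33 °C in the control group or 42 °C in the heat group. After waking they were killed at once and round spermatids were isolated. There were 5 mice in a group, each with 1 library made from total RNA after removal of ribosomal RNA. CD1 is an outbred stock, so the spread between libraries includes genetic differences between mice as well as differences between isolations.

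The acrosome is a large secretory vesicle that caps the sperm nucleus. Round spermatids build it from vesicles of the Golgi apparatus, which fuse, flatten over the nucleus and are held there by proteins of the inner acrosomal membrane, the nuclear envelope and the cytoskeleton between them. At fertilization the vesicle releases enzymes that act on the egg coats and exposes membrane proteins, among them Izumo1, that bind and fuse with the egg. The cells transcribe most of these genes long before the proteins are used.

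Facts of all libraries come first, since several bear on the genes. Total counts ran from 60623568 in 42 °C replicate 2 to 117723075 in 33 °C replicate 2, and the 34 genes together took between 0.582% and 0.756% of the gene counts of a library. Levels are CPM, the read counts of a gene relative to the total of its library after scaling with the TMM factors of edgeR. The labelled cell type was checked on 6 markers per cell type. The round spermatid markers summed to between 570 and 1137 CPM at 33 °C and between 864 and 1320 CPM at 42 °C, and all 6 were detected. They were Sun5, Tssk1, Tssk2, Catsper3, Catsper4 and Hspa1l, the last of which is a gene of the HSP70 heat shock family. The genes listed as markers of elongating spermatids, the next stage, were Prm1, Prm2, Tnp1, Tnp2, Odf1 and Smcp. They summed to between 1312 and 5272 CPM over the 10 libraries. Whether this RNA lay in elongating or in round spermatids was not measured, so the sum is no count of elongating cells. The markers of spermatocytes, the stage before, summed to between 89.7 and 190 CPM. Markers of spermatogonia summed to at most 12.2 CPM, of Leydig cells to at most 18.2 CPM, of macrophages and leukocytes to at most 10.7 CPM and of Sertoli cells to at most 3.00 CPM. In 42 °C replicate 2, 16.2% of counts lay on transposable elements, against 4.62% to 9.07% in the other 9 libraries. In RNA from many cells, a change in how many cells of a stage were recovered cannot be told apart from a change in RNA per cell.

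After heating, none of the 34 acrosome and fusion genes changed by the threshold of the test. The edgeR quasi-likelihood test at an adjusted p of 0.05 called 0 of 34 higher and 0 of 34 lower at 42 °C, beside 0.0884% of 26025 tested features higher and 0.00384% lower. At an unadjusted p of 0.05, edgeR gave 1 of 34 higher, Spaca6, where 8.56% of all features were higher, and 0 of 34 lower, where 2.94% were lower. This count changed with the setting, to 9 of 34 higher with library totals in place of TMM, 6 with no filter, 11 with limma voom, and 7 higher and 2 lower with the ratio of transposable element to gene counts as a covariate. The shares over all features under these settings are not given here, so these counts have no background beside them. No gene of the 34 had all 5 libraries of one group above all 5 of the other, in either direction. Among all features 1.32% were higher in this way and 0.68% lower. The log2 fold change, 42 °C against 33 °C, was positive for 22 genes and negative for 12, with a median of 0.18. Over all tested features 48.9% were positive and the median was -0.01. The median of the 34 moved by over 1.5 times when single libraries were left out, to 0.06 without 42 °C replicate 4, 0.10 without 33 °C replicate 4 and 0.39 without 33 °C replicate 5.

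The signs were unequal over the roles. Of the building genes 7 were positive and 8 negative, with a median log2 fold change of -0.06. Of the contents 6 were positive and 3 negative, with a median of 0.24. Of the fusion genes 9 were positive and 1, Izumo4, was negative, with a median of 0.24. The difference between the roles was not tested. The 95% interval of the log2 fold change included 0 for 33 of 34 genes. It excluded a doubling for 31 genes, all but Spaca6, Hyal5 and Spaca4, and it excluded a fall to 50% or less for all 34. Over all 26025 tested features, the interval included 0 for 23034, excluded a doubling for 19743 and excluded a fall to 50% or less for 23627. These bounds come from the spread between mice and cover the libraries as a whole, not single cells.

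**Figure D1:**
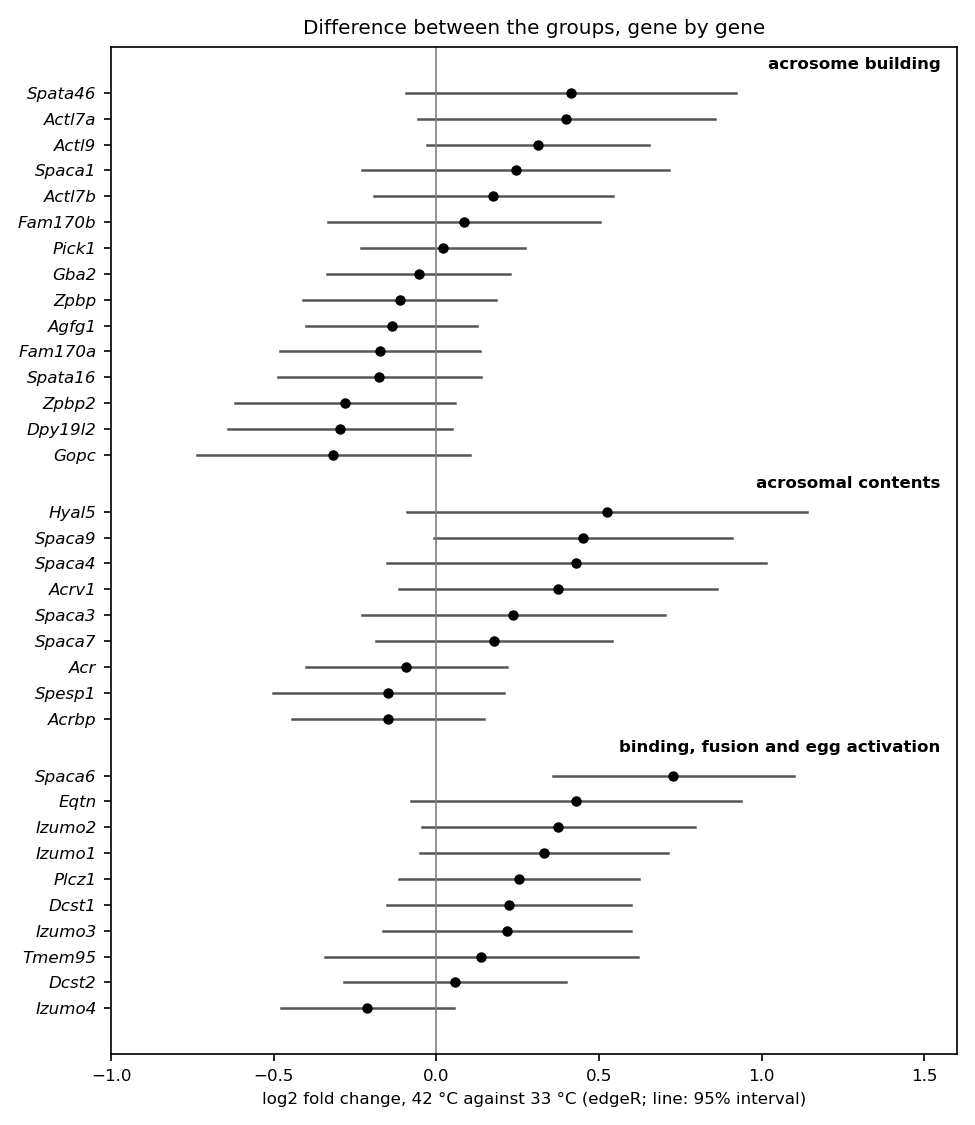
Log2 fold change of each of the 34 genes at 42 °C against 33 °C (x axis, edgeR), grouped by role; points are estimates and lines 95% intervals. Only the line of Spaca6, from 0.36 to 1.10, lies wholly on one side of 0.

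The same few libraries stood at the extremes of their group for many of the genes. At 33 °C, replicate 5 was the highest of its group for 23 genes, and replicates 3 and 4 were the lowest for 16 and 17 genes. At 42 °C, replicate 4 was the highest for 22 genes and replicate 2 the lowest for 18.

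A first pattern held 21 genes, which were highest in 33 °C replicate 5 within the control group and in 42 °C replicate 4 within the heat group. They made up 61.8% of the 34, where 21% of the 8494 genes with a mean of at least 10 CPM had the same pair of highest libraries. The 21 were 6 of 15 building genes (Actl7a, Actl7b, Actl9, Fam170b, Spaca1 and Spata46), 6 of 9 contents (Acrv1, Hyal5, Spaca3, Spaca4, Spaca7 and Spaca9) and 9 of 10 fusion genes, all but Izumo4. All 21 had a positive log2 fold change, from 0.06 for Dcst2 to 0.73 for Spaca6, with a median of 0.31. The signs of the other genes with this pattern are not given here, so these signs have no background beside them. The 2 patterns were defined after the values were seen, so they are a description with no test.

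A second pattern held 8 genes, which were highest in 33 °C replicate 2 and lowest in 42 °C replicate 2. These were Acrbp, Agfg1, Dpy19l2, Fam170a, Gba2, Izumo4, Zpbp and Zpbp2, or 23.5% of the 34, beside 26.9% of the 8494 genes. All 8 had a negative log2 fold change, from -0.30 for Dpy19l2 to -0.06 for Gba2, with a median of -0.16. This pattern picks genes by a high control library and a low heated library, so a negative sign is favoured by the choice itself. Acr, Gopc, Pick1, Spata16 and Spesp1 had neither pattern. The genes of the first pattern had shorter transcripts than those of the second, with a median of 1197 bases and 6 exons in the longest principal transcript against 2662.5 bases and 10 exons. The 4 genes of a single exon, Actl7a, Actl7b, Actl9 and Spaca4, all had the first pattern.

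**Figure D2:**
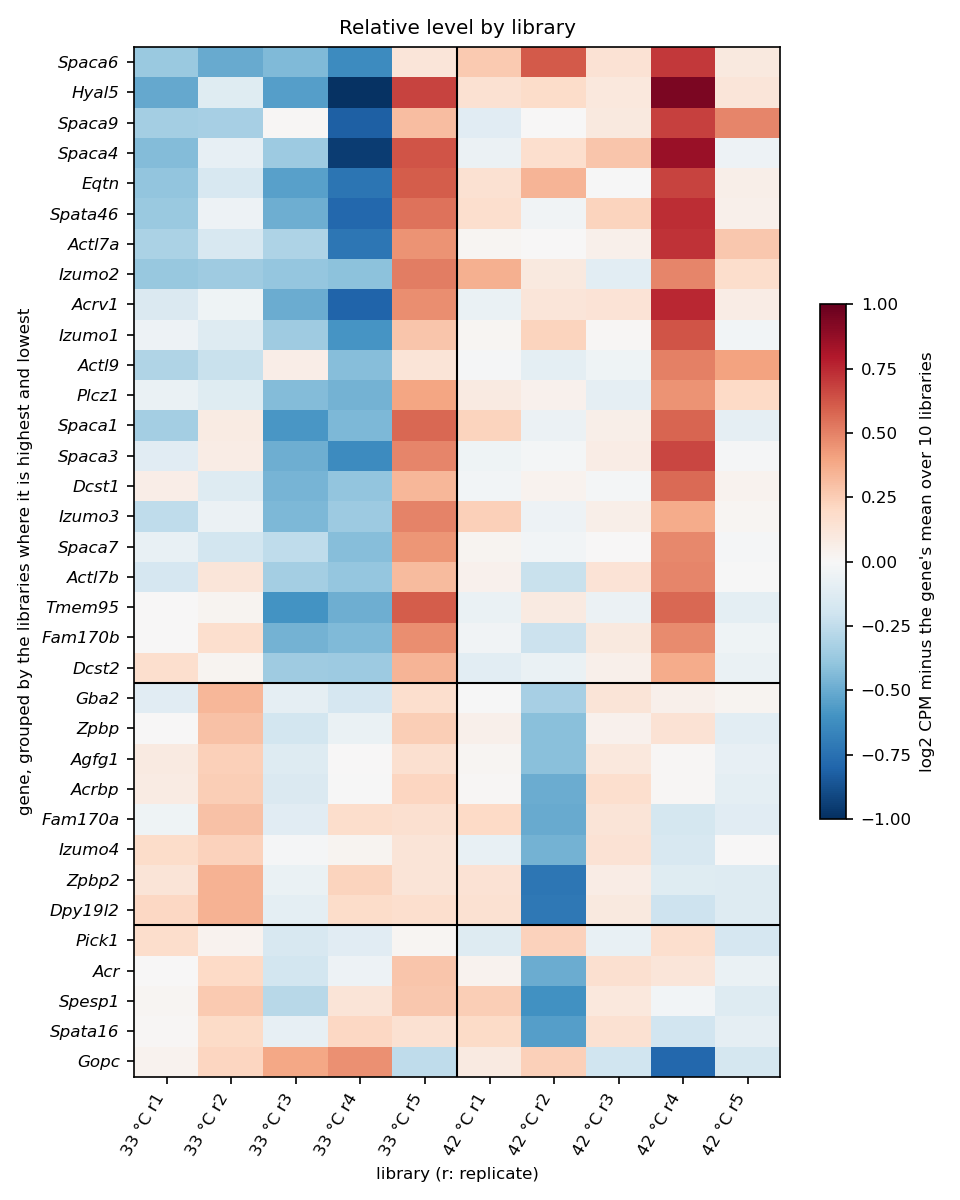
Log2 CPM of each gene minus its own mean over the 10 libraries (colour, cut at -1 and 1); columns are libraries, with 33 °C left and 42 °C right of the line, and rows are genes in the first pattern (top 21), the second (next 8) and neither (last 5). The top block is reddest in 33 °C replicate 5 and 42 °C replicate 4, and the middle block bluest in 42 °C replicate 2.

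Markers of round spermatids and a sign of library makeup moved with these patterns. The 2 libraries in which the first pattern was highest also had the most round spermatid marker RNA of their groups, 1137 CPM in 33 °C replicate 5 and 1320 CPM in 42 °C replicate 4. Of the 6 round spermatid markers 5 had the first pattern themselves, and all 6 had positive log2 fold changes, with a median of 0.33 and 0 called. The marker without the pattern was Hspa1l, highest in 33 °C replicate 3 (239 CPM) and 42 °C replicate 5 (356 CPM). This HSP70 gene had the largest log2 fold change of the 6, at 0.45, so the sums and signs are not of stage markers alone. The library in which the first pattern was lowest, 33 °C replicate 4, had the least round spermatid marker RNA, at 570 CPM, and the most of spermatocytes, at 190 CPM. In 42 °C replicate 4 the spermatocyte sum was the lowest of all, at 89.7 CPM. The markers in these sums did not all move together. Sycp3, Hormad1, Spo11 and Meiob were each lowest in 42 °C replicate 4, while Sycp1 (31.7 CPM) and Dmc1 (1.05 CPM) were not. In 33 °C replicate 4, Sycp3, Hormad1 and Spo11 were each highest, while Sycp1 (26.2 CPM) was below its control mean of 29.6 CPM. The summed elongating spermatid markers did not follow the first pattern across libraries, though 2 of the 6, Odf1 and Smcp, had it themselves. The 6 log2 fold changes of these markers were also all positive, with a median of 0.28 and 0 called. Their sums were highest in 33 °C replicate 3 (3665 CPM) and 42 °C replicate 5 (5272 CPM), where the median of the first pattern stood at -0.44 and 0.03. 42 °C replicate 2, where the second pattern was lowest, was the library of fewest counts and of the largest share of counts on transposable elements. With the log2 ratio of transposable element to gene counts as a covariate the median over the 34 genes was 0.26, and without that library it was also 0.26. The part of stage makeup in the members' values was not tested.

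**Figure D3:**
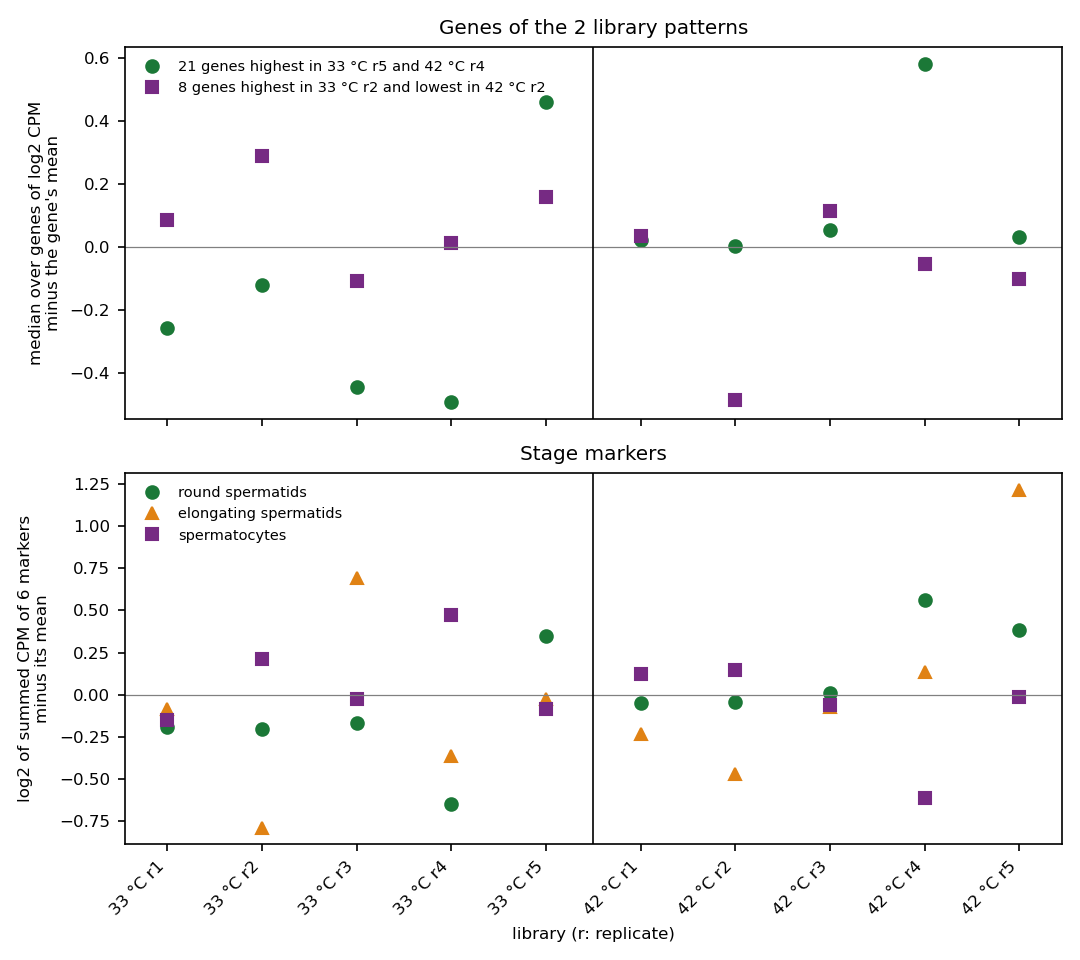
Upper panel, the median over the 21 genes of the first pattern (circles) and the 8 of the second (squares) of log2 CPM minus each gene's mean, by library; lower panel, the log2 summed CPM of 6 markers each of round spermatids, elongating spermatids and spermatocytes minus its mean. The first pattern stood at 0.46 in 33 °C replicate 5 and 0.58 in 42 °C replicate 4, the libraries with the largest round spermatid sums of their groups.

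Since genes moved together across the libraries, the sequence before their start sites was examined. RefSeq windows of GRCm38.p6, each reaching from 250 bases before the start to 50 after it, were found for 29 of the 34 genes, in 32 windows, and for Acr, Eqtn, Fam170a, Izumo4 and Plcz1 none was used here. The first motif was the cAMP response element, TGACGTCA, bound by factors such as CREM, a regulator of spermatid genes. It stood in the window of 1 gene, Izumo1, or 3.125% of the 32 windows, against 1.79% of 32851 windows of all genes. Its shorter form TGACG, searched on both strands and contained in the full site, was in 37.5% of the members' windows against 20.81% of all. The 10 genes with it were Acrbp, Dpy19l2 and Zpbp2 of the second pattern, Izumo1, Spaca1, Spaca3 and Tmem95 of the first, and Gopc, Pick1 and Spesp1 of neither.

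Pairs of the unit bound by heat shock factors were searched in both orders. GAANNTTC was in 9.375% of the members' windows (Izumo1, Pick1 and Spaca4) and 7.86% of all, and TTCNNGAA in 18.75% (Acrv1, Spaca1, Spaca3 and Spata46) and 8.52% of all. Of these 7 genes 6 had the first pattern, all but Pick1, as did 19 of the 29 genes with a window. GTTGCC, a partial site of RFX factors, was in 21.88% of the members' windows (Acrbp, Actl7b, Pick1, Spaca6, Spaca9 and Spesp1) and 12.51% of all. The 2 windows each of Pick1, Spaca1 and Spaca3 overlap and count separately in these shares.

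Stretches of 150 bases that end at the RefSeq start are printed for 4 genes of the first pattern and 1 of the second, 5′ to 3′ on the strand of the gene. Each holds at least 1 of the motifs searched, in capitals, and all other bases are in lower case. Izumo1 (chr7:45621661-45621810, plus strand) has a GAANNTTC pair that begins 124 bases before the start and the full cAMP response element 96 bases before it. Acrv1 (chr9:36693070-36693219, plus) has a TTCNNGAA pair 13 bases before the start. Spaca4 (chr7:45725817-45725966, minus) has a GAANNTTC pair at 86 bases. Spaca6 (chr17:17830825-17830974, plus) has the partial RFX site on the opposite strand at 53 bases, and its RefSeq start lies 3817 bases inside the gene as the deposited table bounds it. Zpbp2 (chr11:98550947-98551096, plus), of the second pattern, has the short cAMP response element on the opposite strand at 147 bases. The motifs are matches of letters, and binding was not measured.
Izumo1: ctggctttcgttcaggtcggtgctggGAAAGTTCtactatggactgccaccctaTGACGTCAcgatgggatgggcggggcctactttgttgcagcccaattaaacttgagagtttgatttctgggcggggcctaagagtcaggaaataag
Acrv1: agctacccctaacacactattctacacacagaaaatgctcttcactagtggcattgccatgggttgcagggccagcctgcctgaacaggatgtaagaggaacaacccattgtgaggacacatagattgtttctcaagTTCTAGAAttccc
Spaca4: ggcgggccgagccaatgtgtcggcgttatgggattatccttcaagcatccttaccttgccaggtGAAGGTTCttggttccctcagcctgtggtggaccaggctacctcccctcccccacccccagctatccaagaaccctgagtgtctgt
Spaca6: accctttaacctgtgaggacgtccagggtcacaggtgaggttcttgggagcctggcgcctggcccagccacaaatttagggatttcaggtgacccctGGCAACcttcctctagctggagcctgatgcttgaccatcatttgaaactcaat
Zpbp2: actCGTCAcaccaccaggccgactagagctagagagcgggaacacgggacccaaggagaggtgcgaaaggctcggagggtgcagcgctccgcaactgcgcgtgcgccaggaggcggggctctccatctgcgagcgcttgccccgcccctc

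Among the building genes, the actin-related proteins and the nuclear anchor differed in sign. Actl9, an actin-like protein of the space between acrosome and nucleus (ENSMUSG00000092519, chromosome 17, 33432896 to 33434268, plus strand, a single exon), read 107, 113, 138, 98.3 and 144 CPM in 33 °C replicates 1 to 5. At 42 °C it read 131, 123, 128, 188 and 175 CPM. Replicates 4 and 5 at 42 °C lay above every control library, and the other 3 lay within the control range. edgeR put its log2 fold change at 0.31, with an SE of 0.16 and an adjusted p of 0.461, the smallest p of the building genes. Actl7a, a second actin-like protein of that space (ENSMUSG00000070979, chromosome 4, 56743413 to 56744925, plus), read 171, 190, 172, 129 and 291 CPM at 33 °C. At 42 °C it read 216, 213, 221, 351 and 256 CPM. The 42 °C libraries were above 4 of the 5 control libraries, and 4 of them were below 33 °C replicate 5. The difference in edgeR was 0.40 on the log2 scale, with an SE of 0.21 and an adjusted p of 0.471. It was 0.64 without 33 °C replicate 5 and 0.25 without 42 °C replicate 4.

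Actl7b, the neighbour of Actl7a on chromosome 4 (ENSMUSG00000070980, 56740005 to 56741443, minus), encodes another actin-like protein. Its libraries read 424, 518, 375, 364 and 591 CPM at 33 °C and 491, 408, 523, 669 and 475 CPM at 42 °C. The ranges overlapped over most of their width, and edgeR gave a log2 difference of 0.17, an SE of 0.17 and an adjusted p of 0.645. That difference was 0.33 without 33 °C replicate 5, 0.28 without 42 °C replicate 2 and 0.06 without 42 °C replicate 4. Gm26657 lies on the opposite strand over 1308 of the 1439 exonic bases of Actl7b and had 1769 counts in all, against 453468 for Actl7b.

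Dpy19l2, the inner nuclear membrane protein that anchors the acrosome to the nucleus (ENSMUSG00000085576, chromosome 9, 24557047 to 24696293, minus), went the other way in sign. Its libraries read 479, 528, 387, 471 and 465 CPM at 33 °C and 461, 253, 444, 360 and 379 CPM at 42 °C. All 5 heated libraries were below the control mean of 466 ± 50.8 CPM (SD, n = 5), and 42 °C replicate 2 was far below the rest. In edgeR the log2 difference between the groups came to -0.30, its SE to 0.16 and the adjusted p to 0.473. Without that library the difference was -0.15. Zpbp2, a protein of the acrosomal matrix that takes part in shaping the sperm head, was also below the control mean in 5 of 5 heated libraries, at a mean of 309 ± 65.1 CPM against 375 ± 38.8 CPM (SD, n = 5 each). Its log2 fold change of -0.28 became -0.13 without 42 °C replicate 2.

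The other 10 building genes had log2 fold changes between -0.32 and 0.41, and 0 of 10 reached an unadjusted p of 0.05. Spata46, a protein of the subacrosomal region, had the highest at 0.41, from 65.2 ± 24.9 CPM in control to 86.9 ± 20.1 CPM in heated libraries (SD, n = 5 each). Gopc, a Golgi protein for sorting vesicles, had the lowest at -0.32, and its order of libraries was unlike most of the others, with its lowest values in 42 °C replicate 4 (10.8 CPM) and 33 °C replicate 5 (15.6 CPM). Spaca1, an inner acrosomal membrane protein, stood at 0.24 and Fam170b, an acrosomal protein, at 0.09. Pick1, which works with Gopc in carrying vesicles, stood at 0.02. Negative values were found for Gba2, a glucosylceramidase (-0.06), Zpbp, the relative of Zpbp2 (-0.11), Agfg1, which acts in docking of acrosomal vesicles (-0.14), Fam170a (-0.17) and Spata16, a Golgi protein of acrosome formation (-0.18).

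Of the 9 genes for acrosomal contents, Acr, Acrbp and Spesp1 had log2 fold changes between -0.15 and -0.09. The other 6 had values between 0.18 and 0.52, and 0 of the 9 were called. Acr encodes acrosin, the main protease of the acrosome (ENSMUSG00000022622, chromosome 15, 89568326 to 89574585, plus). It read 317, 363, 279, 305 and 383 CPM at 33 °C and 324, 224, 353, 343 and 301 CPM at 42 °C. The heated libraries lay within the control range but for 42 °C replicate 2, which was below it. This gave a log2 fold change of -0.09 in edgeR, an SE of 0.14 and an adjusted p of 0.769, with a 95% interval of the difference from -0.40 to 0.22. Without 42 °C replicate 2 the difference was 0.03.

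Acrbp, which binds the acrosin precursor and governs its processing (ENSMUSG00000072770, chromosome 6, 125049689 to 125063267, plus), had 525, 587, 450, 495 and 576 CPM at 33 °C. At 42 °C it had 501, 352, 556, 501 and 464 CPM. Again 42 °C replicate 2 was below every other library, and the other 4 were within the control range. edgeR put its log2 fold change at -0.15, with an SE of 0.14 and an adjusted p of 0.629. That value was -0.03 without 42 °C replicate 2 and -0.08 without 33 °C replicate 5. Its exons overlap on the same strand those of the noncoding Gm44597, which had 149655 counts, so reads there could have gone to either. Spesp1, a protein of the equatorial segment (ENSMUSG00000046846, chromosome 9, 62270729 to 62282208, minus), had 448, 528, 364, 482 and 532 CPM at 33 °C and 522, 290, 475, 434 and 404 CPM at 42 °C. The difference in edgeR was -0.15 on the log2 scale, with an SE of 0.16 and an adjusted p of 0.683. Without 42 °C replicate 2 it was -0.01, and without 33 °C replicate 5 it was -0.06.

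Spaca9, a sperm acrosome associated protein (ENSMUSG00000026809, chromosome 2, 28692080 to 28699727, minus), had the smallest p of the contents. It read 61.3, 61.4, 78.0, 44.1 and 95.9 CPM at 33 °C and 71.8, 77.7, 82.7, 125 and 109 CPM at 42 °C. Replicates 4 and 5 at 42 °C were above every control library, and replicates 1 and 2 were below 33 °C replicate 3. In edgeR the log2 difference between the groups came to 0.45, its SE to 0.21 and the adjusted p to 0.443.

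Hyal5, a hyaluronidase that acts on the matrix between the cumulus cells around the egg (ENSMUSG00000029678, chromosome 6, 24857997 to 24891958, plus), had the widest spread of the 34 genes at 33 °C. Its control libraries read 65.8, 86.4, 64.3, 47.4 and 150 CPM, a ratio of 3.16 between the highest and the lowest. Its heated libraries read 104, 107, 101, 181 and 102 CPM, so 4 lay together between 33 °C replicates 2 and 5 and replicate 4 lay above all. This gave a log2 fold change of 0.52 in edgeR, an SE of 0.28 and an adjusted p of 0.474, with a 95% interval of the difference from -0.09 to 1.14. The difference was 0.89 without 33 °C replicate 5 and 0.32 without 42 °C replicate 4. Acrv1, the acrosomal matrix antigen SP-10 (ENSMUSG00000032110, chromosome 9, 36693220 to 36698843, plus), was likewise highest in 33 °C replicate 5 and 42 °C replicate 4. It read 179, 192, 140, 114 and 272 CPM at 33 °C and 189, 215, 217, 333 and 209 CPM at 42 °C. edgeR put its log2 fold change at 0.37, with an SE of 0.23 and an adjusted p of 0.496. That value was 0.61 without 33 °C replicate 5 and 0.21 without 42 °C replicate 4.

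Spaca4, a membrane protein held by a lipid anchor, averaged 54.1 ± 23.3 CPM in control and 72.9 ± 21.2 CPM in heated libraries, a log2 fold change of 0.43. Spaca3, a lysozyme-like protein, had 93.0 ± 29.7 and 110 ± 26.0 CPM, and Spaca7, which is released in the acrosome reaction, had 71.7 ± 17.8 and 81.0 ± 13.4 CPM (SD, n = 5 each). Their log2 fold changes were 0.24 and 0.18. In all 3 the 42 °C libraries were above the control mean in 5 of 5, and none of the 3 reached an unadjusted p of 0.05 in edgeR.

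Spaca6 showed the largest difference of the 34 genes. It encodes a sperm membrane protein required for fusion with the egg (ENSMUSG00000080316, chromosome 17, 17827158 to 17843009, plus). Its control libraries read 38.2, 34.7, 36.2, 31.9 and 53.5 CPM. Its heated libraries read 59.2, 75.3, 54.3, 80.6 and 52.7 CPM. In 4 of 5 heated libraries it was above every control, and the groups overlapped only through 42 °C replicate 5 and 33 °C replicate 5. The means were 38.9 ± 8.51 CPM and 64.4 ± 12.7 CPM (SD, n = 5 each), a fold of 1.66 with a 95% interval from 1.28 to 2.14. The log2 fold change was 0.73 (SE 0.17), with an unadjusted p of 0.000988 and an adjusted p of 0.211 in edgeR.

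The call for Spaca6 depended on the tool. DESeq2 called it higher at an adjusted p of 0.0168, beside 0.989% of 25997 features called higher, and limma voom with quality weights called it at an adjusted p of 0.0441, beside 0.476% of features. No other gene of the 34 was called by either tool. Over the 20 alternatives its log2 fold change stayed between 0.63 and 0.92, and its adjusted p ran from 0.0168 to 0.734, the highest with the replicate block. The microRNA Mir125a shares 47 of the 7067 exonic bases of Spaca6 and had 65 counts. The longest principal transcript of Spaca6 has 1073 bases, so its counts may include reads from exons outside that transcript. Which exons the reads came from was not tested.

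Izumo1, the sperm protein that binds the egg receptor Juno (ENSMUSG00000064158, chromosome 7, 45621811 to 45628823, plus), differed less. It read 94.7, 89.9, 77.0, 65.3 and 119 CPM at 33 °C and 99.4, 114, 98.9, 152 and 96.5 CPM at 42 °C. The heated libraries were above 4 of the 5 controls, and 4 of them were below 33 °C replicate 5. The difference in edgeR was 0.33 on the log2 scale, with an SE of 0.18 and an adjusted p of 0.472. It was 0.50 without 33 °C replicate 5 and 0.20 without 42 °C replicate 4. Of its 2992 exonic bases 654 also belong to Rasip1 on the same strand, which had 15611 counts against 93168 for Izumo1.

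Its relatives were spread over both signs. Izumo2 (ENSMUSG00000066500, chromosome 7, 44708742 to 44719844, plus) read 26.7, 27.2, 26.7, 26.1 and 49.4 CPM at 33 °C and 44.6, 37.3, 32.3, 48.9 and 39.3 CPM at 42 °C. Control replicates 1 to 4 lay close together and below all 5 heated libraries, while control replicate 5 was above all 5. In edgeR the log2 difference between the groups came to 0.37, its SE to 0.19 and the adjusted p to 0.467. Without 33 °C replicate 5 the difference was 0.64, with an adjusted p of 0.0713 in edgeR. Izumo3 stood at 0.22, with 43.9 ± 12.8 CPM in control and 51.1 ± 6.20 CPM in heated libraries (SD, n = 5 each). Izumo4, the one fusion gene with a negative sign, stood at -0.21, with 129 ± 9.26 and 111 ± 17.0 CPM.

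Plcz1 encodes the phospholipase that sperm bring into the egg to start its calcium oscillations (ENSMUSG00000030230, chromosome 6, 139989673 to 140041457, minus). It read 152, 147, 118, 115 and 210 CPM at 33 °C and 169, 164, 150, 218 and 183 CPM at 42 °C. The heated libraries were above the control mean in 5 of 5, and 1 was above 33 °C replicate 5. This gave a log2 fold change of 0.25 in edgeR, an SE of 0.17 and an adjusted p of 0.524. That value was 0.45 without 33 °C replicate 5 and 0.17 without 42 °C replicate 4. Dcst2, required in sperm for fertilization together with Dcst1 (ENSMUSG00000109293, chromosome 3, 89361975 to 89377549, plus), read 170, 155, 119, 118 and 193 CPM at 33 °C and 141, 145, 158, 197 and 146 CPM at 42 °C. The ranges overlapped over most of their width, and edgeR gave a log2 difference of 0.06, an SE of 0.16 and an adjusted p of 0.877. The difference was 0.20 without 33 °C replicate 5 and -0.04 without 42 °C replicate 4.

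Dcst1 and Dcst2 lie on opposite strands of chromosome 3 with overlapping gene bounds. Dcst1 stood at 0.22, with 128 ± 30.0 CPM in control and 150 ± 28.9 CPM in heated libraries. Eqtn, an acrosomal membrane protein, stood at 0.43, with 79.3 ± 32.5 and 107 ± 21.5 CPM, and had all 5 heated libraries above the control mean. Tmem95, a membrane protein required for fusion, stood at 0.14, with 28.8 to 66.5 CPM at 33 °C and 40.9 to 65.1 CPM at 42 °C.

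Compared per length, the 34 genes covered a wide range of levels. CPM were divided by the exonic bases of each gene in GENCODE M21. In this unit Actl7b was the highest, at 316 ± 67.9 CPM per kb in control and 357 ± 67.1 CPM per kb in heated libraries (SD, n = 5 each). Acr, Zpbp2 and Spata16 followed, with means over the 10 libraries of 204, 203 and 186 CPM per kb. Acrbp (153), Spesp1 (147), Actl7a (146) and Dpy19l2 (123) came next. By all exons, the 10 fusion genes ran from Tmem95 at 84.9 CPM per kb through Eqtn (72.3), Dcst2 (67.5), Plcz1 (64.7), Izumo2 (49.5), Izumo4 (43.0), Izumo3 (37.5), Izumo1 (33.7) and Dcst1 (26.5) to Spaca6 at 7.31.

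Most neighbours in this order differed by less than their spread over libraries. Of 33 neighbouring pairs, 4 differed by more than the larger of their SDs over the 10 libraries, which were Actl7b above Acr, Spata16 above Acrbp, Dcst1 above Pick1, and Spaca6 above Gopc. Among all tested genes the 34 lay between the 54.01st percentile (Gopc) and the 99.65th (Actl7b) of CPM per kb. This order is that of all annotated exons, and much of it between the first and the last gene changes when the length of the longest principal transcript is used. By that length Actl7b was still first at 336 CPM per kb, followed by Acrbp (266), Zpbp2 (235), Acr (212), Spata16 (194) and Acrv1 (187, against 56.5 by all exons). Izumo4 became the highest fusion gene at 101 CPM per kb, above Eqtn (86.7) and Tmem95 (84.9), and Izumo1 had 67.5. Spaca6, with 1073 bases against 7067 of all exons, had 48.1 CPM per kb, and Gopc was last by both lengths, at 4.53 here.

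**Figure D4:**
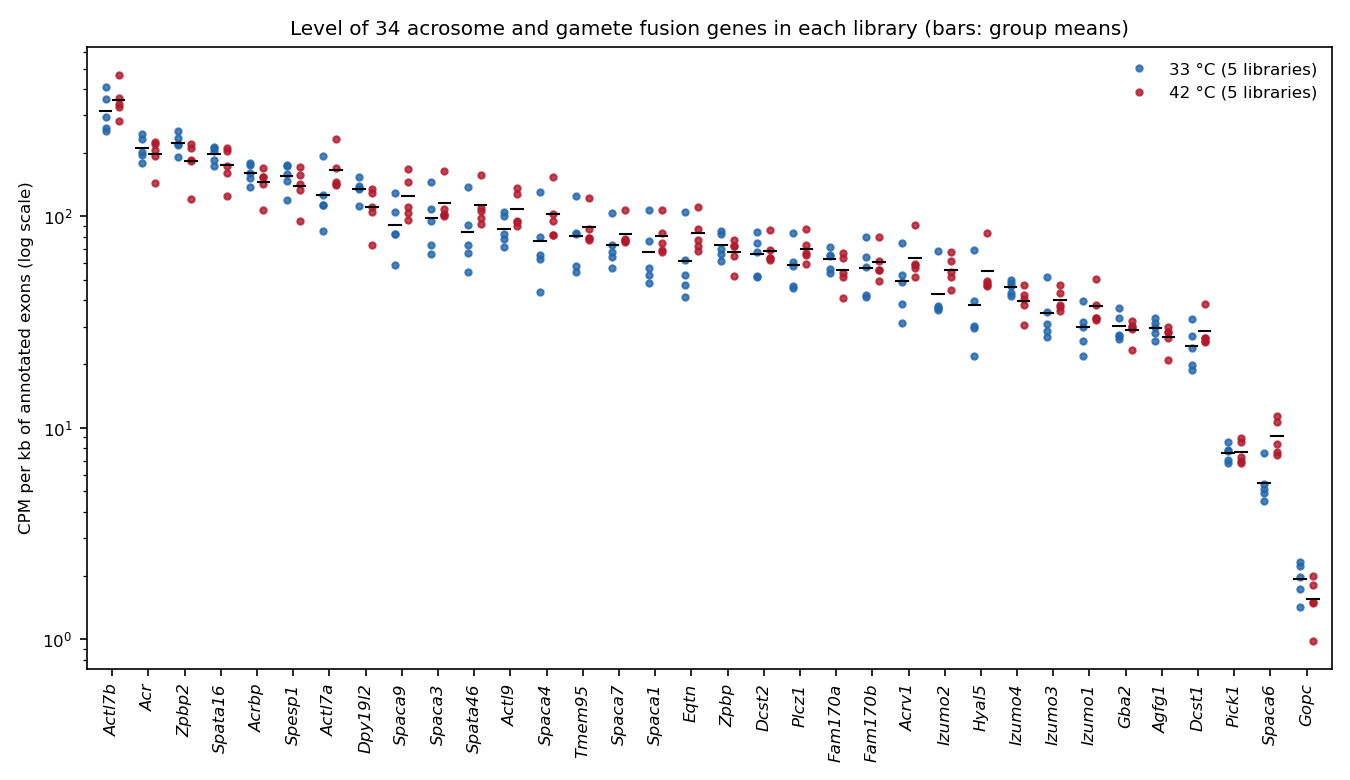
CPM per kb of annotated exons (y axis, log scale) of the 34 genes in the 33 °C (blue) and 42 °C (red) libraries; each point is a library and each bar a group mean. The genes run from Actl7b at 336 to Gopc at 1.74 CPM per kb, and the points of both colours overlap for every gene.

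Other genes of the same processes were counted from lists of names chosen for function. Of 20 tested genes of acrosome building, 0 were called by edgeR, with 10 positive and 10 negative log2 fold changes and a median of -0.04. Ccin, which encodes calicin of the sperm head cytoskeleton, had the smallest p, at 70.0 ± 24.5 CPM in control and 107 ± 33.9 CPM in heated libraries (SD, n = 5 each) and a log2 fold change of 0.62 (edgeR adjusted p = 0.410). Sppl2c, a protease of spermatid membranes, followed at 0.61 (edgeR adjusted p = 0.437). Of 19 other acrosomal contents 0 were called, with 9 positive and 10 negative and a median of -0.09. Cd46, an inner acrosomal membrane protein, stood at 0.77 (edgeR adjusted p = 0.428) and Arsa, arylsulfatase A, at -0.28 (edgeR adjusted p = 0.456). Of 8 other genes of binding and fusion 0 were called, with 5 positive and 3 negative and a median of 0.18.

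Tmem81, a sperm membrane protein that binds Izumo1 and Spaca6, had the smallest p of the genes tested on these lists. It read 11.2, 15.5, 13.7, 8.11 and 24.1 CPM at 33 °C and 22.1, 28.0, 20.8, 37.2 and 21.4 CPM at 42 °C. All heated libraries were above 4 of the 5 controls, and 33 °C replicate 5 lay among them. edgeR put its log2 fold change at 0.83, with an SE of 0.27 and an adjusted p of 0.369. B4galt1, a galactosyltransferase on the sperm surface, had a log2 fold change of -0.24 (edgeR adjusted p = 0.430). The first pattern of libraries was found in 5 of 20 other building genes, 8 of 19 other contents and 5 of 8 other binding and fusion genes. Among the 8494 genes with a mean of at least 10 CPM it was found in 21%. Some genes on these lists, such as Vps54 and Mfge8, lie below that level.

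The sign of the median over the 34 genes was positive under every setting tried, and its size was not stable. It lay between 0.06 and 0.39 over the 20 alternatives, while the per-library median of the 34 genes had an SD between replicates of 0.25 on the log2 scale. Without 33 °C replicate 5, 17 of 34 genes reached an unadjusted p of 0.05 in edgeR, all higher at 42 °C, beside 15.1% of 26545 features, and 0 were called at an adjusted p of 0.05. That library was the highest control for 23 of the 34 genes. Leaving it out lowers the control mean of those genes, so a larger count is favoured by the choice itself.

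**Figure D5:**
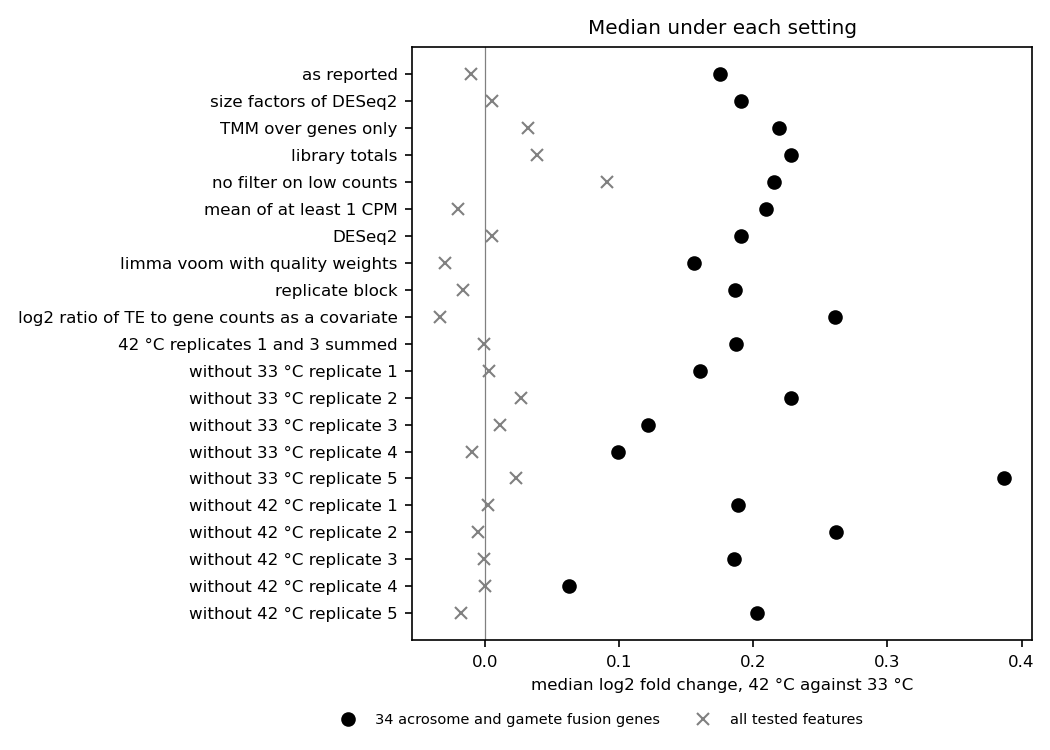
Median log2 fold change at 42 °C against 33 °C (x axis) of the 34 genes (filled circles) and of all tested features (crosses) under each setting (rows). The circles run from 0.06 without 42 °C replicate 4 to 0.39 without 33 °C replicate 5, and the crosses from -0.03 to 0.09.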

How the data were processed

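RNA of round spermatids from 10 mice, 5 per group, was measured as 1 table of raw read counts per gene and per subfamily of transposable elements, deposited by the authors with no normalization, judged from whole numbers whose sums differ between libraries. Trim Galore, cutadapt, DRAGEN and the builds GRCm38 and mm10 are named, per the submitters' processing notes. The counting tool and its strand setting are named in no source used here, so overlapping genes were listed. Of 34 members, 33 had the position of GENCODE M21; Tmem95 did not.

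Features were kept with filterByExpr (minimum count 10, minimum total 15, group size 5) and scaled with TMM over genes and transposable elements together. The quasi-likelihood test of edgeR 4.0.16 (R 4.3.3) was run with the group as its sole term over 26025 features, with Benjamini-Hochberg adjustment over all of them and a threshold of 0.05. It was tested on simulated data in which each feature was drawn on its own. Shifts shared by many genes of a library were not part of that simulation. Alternatives were DESeq2 1.42.0, voom of limma 3.58.1, other scaling and filters, a covariate, a replicate block, the closest pair of libraries summed, and each library left out. Counts of 42 °C replicates 1 and 3, the most alike pair of a group, differed beyond sampling noise (chi-square over its degrees of freedom 13.92). The members and all lists were chosen with earlier results of these data known, so no test was made over a list. All members are named. Library values are given in full for the 3 of smallest p and the 2 of highest mean CPM in each role, and for Izumo1, Acr, Plcz1 and Dpy19l2. In the other lists the 2 of smallest p are named. Library values of Tmem81 and the 2 library patterns were chosen after values were seen. Replicate numbers come from the titles, and nothing says that they pair mice. Every member had at least 964 counts in each library, and the test measures the spread between libraries.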

Additional observations from a re-analysis of the deposited data

Results flagged for a closer look

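Within each group of 5 libraries, each gene's CPM was checked for a highest or lowest library whose gap to the next exceeded the 95% critical value of Dixon for its ratio to the whole range, which chance gives in about 1 of 20 sets. Of 68 sets 8 had one, where about 3.4 would come by chance, and the sets are not independent since the genes share libraries. In 7 of the 8 the library was 42 °C replicate 4. There Spata46 had 122 CPM against 71.1 to 84.6 in the other 4, Hyal5 181 CPM against 101 to 107, Acrv1 333 CPM against 189 to 217, and Spaca3 156 CPM against 94.9 to 103. Spaca7 had 105 CPM against 73.7 to 76.7, Dcst1 201 CPM against 134 to 140.0, and Tmem95 65.1 CPM against 40.9 to 46.5. The remaining set was Izumo2 at 33 °C, with 49.4 CPM in replicate 5 against 26.1 to 27.2 in replicates 1 to 4. 42 °C replicate 4 also had the largest round spermatid marker sum (1320 CPM) and the smallest spermatocyte sum (89.7 CPM) of the 10 libraries, and 0.821% of its counts were mitochondrial, beside 0.816% in 33 °C replicate 3 and at most 0.546% in the other 8. The part of these in the values was not tested.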

How the results depend on the processing

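At an adjusted p of 0.05, 1 of the 34 genes, Spaca6, was called higher with DESeq2 and 1 with limma voom with quality weights, against 0 with edgeR, and 0 were called lower under each setting run. Signs turned for 6 genes with log2 fold changes near 0, and the cause was not tested. With limma voom these were Pick1 (-0.122), Gba2 (0.0640), Acr (0.0100) and Dcst2 (-0.00214), and with the transposable element ratio as a covariate Pick1 (-0.0125), Gba2 (0.0344) and Acr (0.00542). With single libraries left out, Pick1 ran from -0.0218 to 0.0779, Gba2 from -0.104 to 0.0706, Fam170b from -0.0343 to 0.274, Acr from -0.148 to 0.0335, Tmem95 from -0.00642 to 0.395 and Dcst2 from -0.0357 to 0.204. With the replicate block the median over the 34 was 0.19 and 0 were called, while calls over all features went from 24 to 4. Same-numbered samples had correlations of deviations between -0.557 and -0.104, and none matched its own number best. A pairing that left no mark on these deviations would not be seen, so whether equal numbers pair mice was not settled. At an unadjusted p of 0.05, edgeR gave between 1 and 17 of the 34 genes higher with single libraries left out. The 17 came without 33 °C replicate 5, the highest control for 23 of the 34 genes, where 15.1% of all features were higher. The shares over all features without each of the other libraries are not given here.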
